A study of Rattus norvegicus with 9 samples.

Results

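The comparison set the 3 libraries of rats with spinal cord injury (SCI) against the mean of the naive group and the sham group, with the same weight on each control group. All 9 libraries of the series entered it, and 16627 of the 30446 genes in the table passed the filter on low counts and were tested. A gene was taken as on the same side of both control groups when its fitted change against sham and its fitted change against naive had the same sign. That held for 7485 of the 16627 tested genes (45.0%), 3799 of them higher in SCI (22.8%) and 3686 lower (22.2%), whether or not they passed the test.

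Dorsal root ganglia came from male rats of the Sprague-Dawley strain and were taken on both sides from thoracic segments T12 and T13 and lumbar segments L1 to L6. The 3 groups, with 3 libraries each, were naive rats, sham rats and rats with SCI, and all are labelled with 30 days after injury, the naive rats included. Neither the kind of cord injury nor the sham procedure is given. The libraries of a group are called biological replicates, but whether each is 1 animal or a pool is not said. Every p-value thus rests on the spread among libraries within groups, and the main fit shared 1 spread per gene over the 3 groups.

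A dorsal root ganglion holds the cell bodies of sensory neurons, each wrapped by satellite glia, together with Schwann cells, macrophages, vessels and connective tissue. Its neurons send an axon branch to the body and another into the spinal cord, so that a cord injury can reach the ganglion through the central axons. Peripheral nerve injury is known to switch on genes in these neurons such as the transcription factor Atf3 and the peptides galanin and VIP, and sensory neurons are studied after cord injury because of the pain that often follows it.

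Library totals ran from 16724878 to 32060538 counts. Markers of the ganglion were high in every library: the summed level of the list for large mechanosensory neurons and proprioceptors was 22166 to 33482 CPM (counts scaled to the size of the library), that of Schwann cell myelin genes 19891 to 35908 CPM and that of satellite glia 9562 to 15692 CPM. On the leading principal component, computed from log2 CPM, the naive libraries stood apart at -43.5 to -41.6, with all sham and SCI libraries at 14.2 to 25.7. On the next component sham 1, at -25.9, and sham 3, at 26.2, lay at opposite ends. The labels name no batch, and a difference of the naive libraries from the rest cannot be told apart from a batch that held only naive libraries.

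By edgeR's quasi-likelihood test with Benjamini-Hochberg adjustment, 2815 of 16627 genes (16.9%) passed an adjusted p of 0.05 between SCI and the mean of both control groups, 1315 higher (7.91%) and 1500 lower (9.02%). Of these, 1341 (8.07% of tested genes) were on the same side of both control groups, 612 higher (3.68%) and 729 lower (4.38%). The other 1474, or 52.4% of the genes that passed, had an SCI mean between the control means. A narrower set of 119 genes (0.716%) passed and had all 3 SCI libraries beyond all 6 control libraries, 73 above them (0.439%) and 46 below (0.277%). Without the test, 235 genes (1.41%) had all SCI libraries beyond all control libraries, 127 above (0.764%) and 108 below (0.650%).

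**Figure D1:**
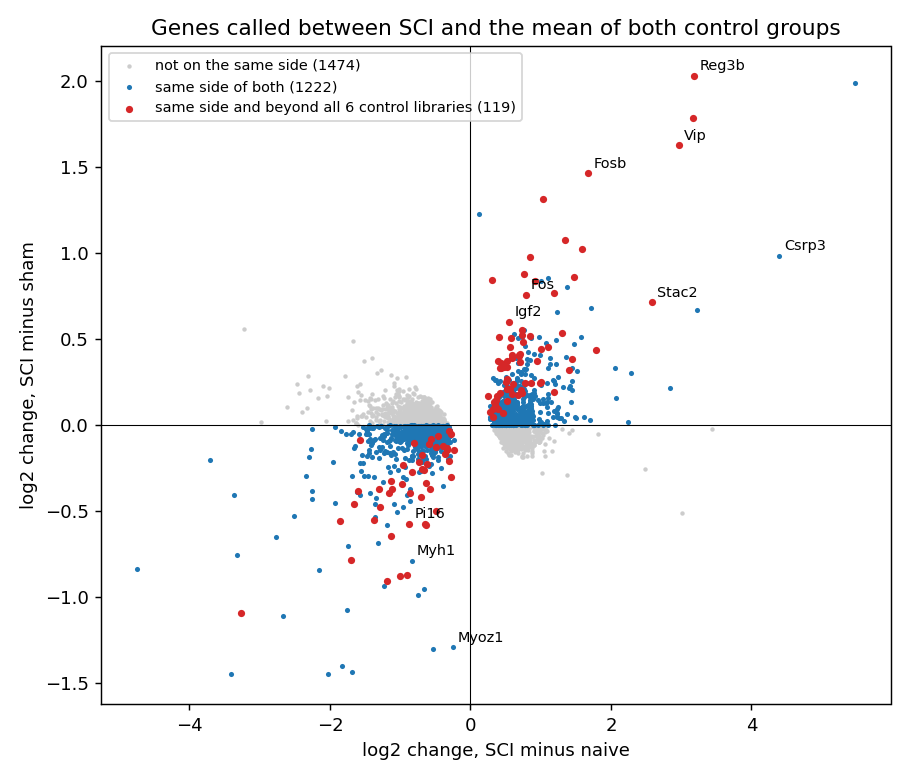
Each point is 1 of the 2815 genes that passed between SCI and the mean of both control groups, by its log2 change of SCI minus naive (x axis) and of SCI minus sham (y axis). Grey points are the 1474 genes not on the same side, blue points are on the same side of both and red points are the 119 genes beyond all 6 control libraries; most same-side genes lie near 0 against sham and far from 0 against naive.

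Among the genes that passed on the same side, sham was the nearer control group for 605 of 612 higher genes and 723 of 729 lower genes. Over all tested genes on the same side, sham was nearer in 3026 of 3799 and 3072 of 3686. The median gap to the nearer control mean was 0.09 on the log2 scale for higher genes and 0.05 for lower genes, and to the farther mean 0.58 and 0.68. A gap of at least 0.25 to the nearer control group was found for 107 higher and 79 lower genes. One of at least 0.5 was found for 35 and 32, and one of at least 1 for 8 and 7. Called or not, 2.5% of all tested genes were higher and 2.2% lower by at least 0.25. At 0.5 these shares were 0.463% and 0.638%, and at 1 they were 0.0541% and 0.0722%. With so many small gaps, the split by direction moved with the scaling: the genes that passed on the same side were 529 higher and 818 lower with RLE size factors, and 691 and 655 with upper-quartile scaling. The genes that passed with a gap of at least 0.5 were of low level. Their median was 1.07 CPM when higher and 0.755 CPM when lower, beside 17.9 CPM over all tested genes.

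Against sham alone, edgeR called 0 genes, with 526 (3.16%) at an unadjusted p under 0.05, and DESeq2 called 9. The edgeR count was 22 without sham 3 and 11 with no filter on low counts. Against naive, 3968 genes were called higher (23.9%) and 4091 lower (24.6%). Sham against naive gave 4102 (24.7%) and 4305 (25.9%). Of the 612 higher and 729 lower same-side genes, 610 and 726 also passed against naive alone, and 70 and 30 had an unadjusted p under 0.05 against sham. With the 6 control libraries fitted as 1 group, so that the distance between naive and sham entered the spread, 0 genes passed by edgeR and 713 had an unadjusted p under 0.05. The 5 with the smallest p in that fit were Fosb, Fos, Vip, Rbp7 and Reg3b, at unadjusted p of 0.000194, 0.000222, 0.000254, 0.00083 and 0.000941, and all at an adjusted p of 0.642. Every "rose" and "fell" that follows refers to the fit with separate naive and sham means.

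The counts moved with single libraries. Without sham 3, 4934 genes passed, 3439 of them on the same side and 1417 beyond all remaining controls. Without sham 1 the 3 counts were 3740, 1985 and 455. Without SCI 2 they were 879, 372 and 75, and without SCI 3 they were 908, 405 and 95. Without naive 1, naive 2 and sham 2, 1804, 1861 and 1873 genes passed, 851, 871 and 735 of them on the same side, and without SCI 1 the genes beyond all controls were 234. Of the 119 genes beyond all 6 control libraries, 87 to 89 still passed without 1 naive library, 88 to 119 without 1 sham library, and 63, 39 and 40 without SCI 1, SCI 2 and SCI 3.

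**Figure D2:**
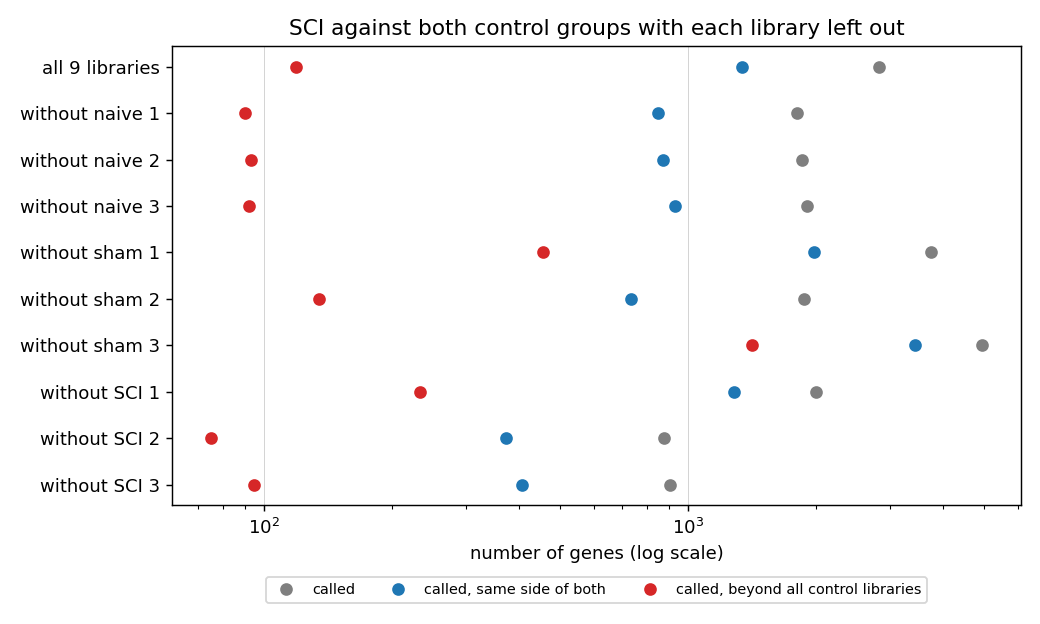
Number of genes (x axis, log scale) that passed with all 9 libraries and with each library left out (rows), in grey for all that passed, in blue for those on the same side of both control groups and in red for those beyond all control libraries. The counts are highest without sham 3 (4934, 3439 and 1417), and without SCI 2 the counts in grey, blue and red are the lowest (879, 372 and 75).

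The immediate early genes, many of them for transcription factors, are genes that neurons switch on within minutes of activity or stress. Of 24 tested members, 5 rose on the same side of both control groups and 0 fell, against 3.68% and 4.38% of all tested genes. Their median log2 change was 0.11, beside 0.01 over all tested genes. The 5 were Fos, Fosb, Junb, Egr1 and Atf3. Without sham 3 the count was 8, and without naive 2, naive 3, sham 2, SCI 2 or SCI 3 it was 3.

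Fos, a subunit of the transcription factor AP-1, was at 6.91, 5.86 and 7.84 CPM in naive libraries 1 to 3, at 5.55, 6.96 and 8.63 in sham libraries and at 11.2, 11.8 and 12.6 in SCI libraries. All SCI libraries were above all control libraries, and the control groups overlapped each other. Fos rose by a log2 change of 0.77 ± 0.13 (SE, n = 3 per group, edgeR adjusted p = 0.00241), with 0.76 ± 0.15 against sham and 0.78 ± 0.15 against naive. Fos was thus a gene whose gap was nearly the same to either control group.

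Fosb, the AP-1 subunit most like Fos, was at 1.19, 1.01 and 1.09 CPM in naive, 1.07, 1.19 and 1.59 in sham and 2.1, 2.87 and 5.78 in SCI libraries. SCI 3 was well above the other SCI libraries, and none overlapped the controls. Fosb rose by 1.57 ± 0.28 on the log2 scale (edgeR adjusted p = 0.00332), and by 1.05 without SCI 3. Its changes were 1.46 ± 0.34 against sham and 1.68 ± 0.33 against naive.

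Egr1, an activity-induced zinc-finger factor, was at 16.1, 16.3 and 18.2 CPM in naive, 18.9, 24.2 and 27.1 in sham and 25.5, 29.8 and 32.4 in SCI libraries. SCI overlapped sham through sham 3, and naive lay below both. Egr1 rose by 0.56 ± 0.11 (edgeR adjusted p = 0.00469), of which the change against sham was 0.32 ± 0.12 and against naive 0.79 ± 0.12. Atf3, the stress factor that marks axotomised sensory neurons, averaged 15.1 ± 0.315 CPM in naive, 18.7 ± 3.85 in sham and 21.4 ± 0.779 in SCI libraries (SD, n = 3). Its log2 change was 0.36 ± 0.10 (edgeR adjusted p = 0.0313), and sham 3, at 22.4 CPM, was above all SCI libraries. Junb rose by 0.26 ± 0.07 (edgeR adjusted p = 0.0242), with 0.12 ± 0.08 against sham. Fos, Fosb and Egr1 passed in every fit without 1 library. Atf3 and Junb did not pass on the same side without naive 2, naive 3, sham 2, SCI 2 or SCI 3.

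The list of axon injury and regeneration genes had 8 of 26 tested members that rose on the same side and 0 that fell, with a median log2 change of 0.15. Beside Atf3 these were the peptide genes Vip and Gal, the secreted lectins Reg3a and Reg3b, the tubulin-binding protein gene Stmn4, the cholecystokinin receptor gene Cckbr and the stress gene Gadd45a. Whether or not they passed, 16 of the 26 members were on the higher side of both control groups and 1 on the lower side. The count that rose was 5 without SCI 3 and 9 without sham 1 or sham 3. The count that fell was 3 without sham 3 and 1 without SCI 1. With all libraries, 3 members passed as lower without being on the same side.

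Vip encodes vasoactive intestinal peptide, a neuropeptide that sensory neurons make little of until their axons are cut. It was at 0.543, 0.472 and 0.225 CPM in naive, 0.845, 1.79 and 0.645 in sham and 3.68, 3.41 and 2.55 in SCI libraries. The lowest SCI library was above the highest control library, sham 2. Vip rose by 2.30 ± 0.26 on the log2 scale (edgeR adjusted p = 0.000393), with 1.63 ± 0.31 against sham and 2.97 ± 0.34 against naive.

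Gal encodes galanin, another peptide of injured sensory neurons. It was at 5.9, 6.42 and 5.65 CPM in naive, 9.07, 10.8 and 8.09 in sham and 11.3, 12.2 and 9.69 in SCI libraries. SCI and sham overlapped, and naive was below both. Gal rose by 0.56 ± 0.11 (edgeR adjusted p = 0.00485), with 0.25 ± 0.13 against sham and 0.88 ± 0.13 against naive.

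The promoters of Vip and Gal, the neuropeptide genes that rose with the smallest p, are shown as RefSeq gives them in the GRCr8 assembly, from 250 bases before to 50 after the gene's start and written along the gene's strand. Capitals mark TGACG, the core of the site that the cAMP-responsive factor CREB is known to bind, searched on both strands. The Vip window is chr1:44470230-44470529 on the + strand, and its match begins 97 bases before the start. The Gal window is chr1:210084523-210084822 on the - strand, and its match begins 63 bases before the start.
Vip: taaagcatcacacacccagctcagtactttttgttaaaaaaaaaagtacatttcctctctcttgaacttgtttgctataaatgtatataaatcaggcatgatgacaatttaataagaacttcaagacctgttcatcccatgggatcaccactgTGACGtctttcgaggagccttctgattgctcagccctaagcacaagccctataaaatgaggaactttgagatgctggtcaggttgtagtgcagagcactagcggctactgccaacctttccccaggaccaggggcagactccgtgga
Gal: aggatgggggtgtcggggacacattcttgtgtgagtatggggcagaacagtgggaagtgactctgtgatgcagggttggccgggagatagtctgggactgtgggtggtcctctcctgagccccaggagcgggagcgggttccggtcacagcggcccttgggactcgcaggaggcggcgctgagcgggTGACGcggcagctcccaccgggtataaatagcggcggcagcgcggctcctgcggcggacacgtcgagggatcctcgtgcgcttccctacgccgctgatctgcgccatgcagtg

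TGACG was in 21.2% of all 33469 promoter windows of 300 bases and in 29.9% of those of the 11213 tested genes that matched. Among the genes that rose with all SCI libraries above the controls, 48 of 73 matched and 10 held TGACG (20.8%). Among those below all controls, 26 of 46 matched and 10 held it (38.5%). The AP-1 motif TGANTCA was in 5.11% of tested genes' windows, in 5 of the 48 (10.4%) and in 0 of the 26, and the longer TGACGTCA, which contains TGACG, in 2.94%, in 1 of the 48 and in 0 of the 26. These are matches of letters only, from few windows.

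Reg3a and Reg3b encode secreted C-type lectins of 1 gene family, known as genes that injured sensory neurons and inflamed tissues switch on. Reads of such related copies may be split between them. Reg3b was at 0.398, 0.472 and 0.386 CPM in naive, 1.21, 0.655 and 0.843 in sham and 1.24, 1.98 and 8.69 in SCI libraries. Reg3a was at 0.507, 0.283 and 0.225 CPM in naive, 1.07, 0.595 and 0.893 in sham and 1.11, 2.18 and 6.14 in SCI libraries. In both genes SCI 1 was barely above sham 1, and SCI 3 stood far above the rest.

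Reg3b rose by 2.61 ± 0.53 (edgeR adjusted p = 0.00628) and Reg3a by 2.48 ± 0.47 (edgeR adjusted p = 0.00455). Without SCI 3 the log2 changes were 1.31 and 1.53. Stmn4, a neuronal stathmin that binds tubulin, was at 19.4, 21.7 and 19.3 CPM in naive, 31.3, 29.9 and 26.6 in sham and 33.4, 31.6 and 35.2 in SCI libraries. SCI 2 was only just above sham 1, and naive was far below. Stmn4 rose by 0.46 ± 0.07 (edgeR adjusted p = 0.00159), with 0.19 ± 0.08 against sham.

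Gadd45a and Cckbr were nearer to sham. Gadd45a averaged 39.7 ± 1.31 CPM in sham and 40.5 ± 1.05 in SCI libraries (SD, n = 3), with 30.7 ± 0.872 in naive libraries, and its log2 change was 0.21 ± 0.05 in all and 0.03 ± 0.06 against sham. Cckbr rose by 0.88 ± 0.25 (edgeR adjusted p = 0.0311) at a level under 1 CPM in every library. Of the wider list of neuropeptide genes, 3 of 24 rose on the same side (Vip, Gal and the itch peptide gene Nppb) and 2 fell (Cartpt, the precursor of the CART peptide, by 0.41 and Pcsk2, a prohormone convertase, by 0.28). The count that rose was 6 without sham 1, 5 without SCI 1 and 2 without naive 3, sham 2 or SCI 3, and the count that fell was 5 without sham 3, 1 without naive 2 or sham 1 and 0 without naive 3, sham 2 or any SCI library.

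Nppb was at 0.977, 0.535 and 0.739 CPM in naive, 0.992, 0.774 and 0.546 in sham and 1.11, 1.33 and 1.86 in SCI libraries. Its log2 change was 0.88 ± 0.25 (edgeR adjusted p = 0.0307), almost the same against either control group, but the call was lost at equal depth and without naive 2, naive 3, sham 2, SCI 2 or SCI 3. Of 10 peptidergic nociceptor markers, 0 passed on the same side, and their median log2 change was -0.08. Of 18 markers of nonpeptidergic nociceptors and pruriceptors, Nppb rose and 0 fell on the same side with all libraries. Without sham 3, 4 of the peptidergic markers and 7 of the nonpeptidergic ones fell. Without sham 1, 1 peptidergic and 2 nonpeptidergic markers rose, as did 2 nonpeptidergic ones without SCI 1. Without SCI 3, 1 nonpeptidergic marker fell and 0 rose, and without naive 2, naive 3, sham 2 or SCI 2, 0 of them rose.

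Stac2, an adaptor that holds voltage-gated calcium channels at the membrane, had the smallest p among genes that rose with all SCI libraries above the controls. It was at 0.832, 0.882 and 0.707 CPM in naive, 2.61, 3.15 and 3.17 in sham and 5.26, 5.44 and 3.82 in SCI libraries. The 3 groups did not overlap, and sham lay between naive and SCI. Stac2 rose by 1.65 ± 0.15 (edgeR adjusted p = 0.000101), with 0.72 ± 0.17 against sham and 2.58 ± 0.19 against naive. Of 24 calcium channel and adaptor genes, 1 rose on the same side, Stac2, against 3.68% of all tested genes. Cacna1a was the 1 that fell, with -0.03 ± 0.10 against sham, and the list's median log2 change was -0.13. Without sham 1, 3 of the list rose and 0 fell, and without sham 3, 1 rose and 6 fell. The modifier potassium channel gene Kcng4 rose by 0.75 ± 0.17 (edgeR adjusted p = 0.0121) and overlapped sham, since SCI 3 was at 10.7 CPM and sham 3 at 13.6. Its call was lost without SCI 1 or SCI 2.

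**Figure D3:**
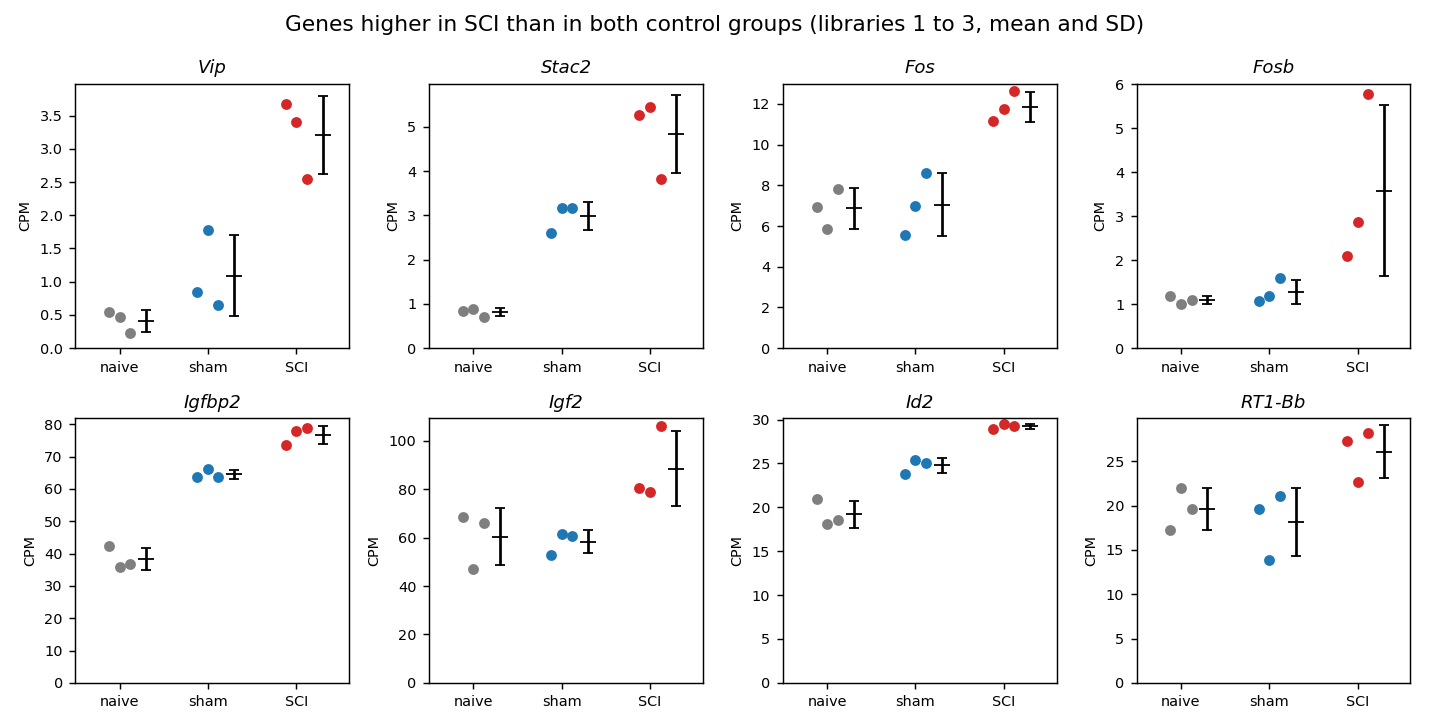
CPM of 8 genes that rose in SCI (y axes, from 0) in each naive, sham and SCI library (points, libraries 1 to 3 from left to right), with the mean and SD of each group beside them. For Fos, Igf2 and RT1-Bb the naive and sham means are close to each other (6.87 and 7.05 CPM for Fos), while for Stac2, Igfbp2 and Id2 sham lies between naive and SCI.

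Growth factor genes passed in both directions, beside 3.68% higher and 4.38% lower on the same side over all tested genes. Of 35 growth factor and receptor genes, 3 rose on the same side (Igfbp2, Igf2 and Vegfa) and 3 fell (Igf1, its receptor gene Igf1r and Igfbp5), with a median of -0.03. The numbers that rose and fell were 5 and 5 without sham 1, 6 and 4 without sham 3, 2 and 1 without naive 3, and 2 and 0 without sham 2, SCI 2 or SCI 3.

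Igfbp2, a binding protein that holds insulin-like growth factors outside cells, was at 42.3, 35.8 and 36.8 CPM in naive, 63.7, 66.1 and 63.8 in sham and 73.4, 78 and 78.7 in SCI libraries. The groups did not overlap, and most of the distance lay between naive and sham. Igfbp2 rose by 0.63 ± 0.06 (edgeR adjusted p = 0.000127), with 0.25 ± 0.07 against sham, and the naive mean of 38.3 CPM was far below the sham mean of 64.5 and the SCI mean of 76.7.

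Igf2, a fetal growth factor that the meninges and perivascular cells keep making in adults, was at 68.4, 47 and 66 CPM in naive, 53, 61.4 and 60.6 in sham and 80.5, 78.7 and 106 in SCI libraries. Naive and sham overlapped fully, and all SCI libraries were higher, with SCI 3 the highest. Igf2 rose by 0.58 ± 0.12 (edgeR adjusted p = 0.00642), with 0.60 ± 0.14 against sham and 0.55 ± 0.14 against naive, and was not called without SCI 3, at 0.42. Vegfa, the vascular growth factor gene, averaged 68.6 ± 3.08 CPM in naive, 72.4 ± 4.23 in sham and 81.7 ± 4.78 in SCI libraries (SD, n = 3) and rose by 0.21 ± 0.06 (edgeR adjusted p = 0.0272).

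Igf1 fell by 0.66 on the log2 scale, with -0.06 against sham, and was not called without SCI 2 or SCI 3. Igfbp5 averaged 708 ± 79 CPM in naive, 689 ± 150 in sham and 540 ± 42.8 in SCI libraries (SD, n = 3). It fell by 0.37 (edgeR adjusted p = 0.0466), by 0.35 against sham and by 0.39 against naive, and overlapped both control groups.

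Among other leading genes that rose, Id2, an inhibitor of helix-loop-helix transcription factors, was at 21, 18.1 and 18.6 CPM in naive, 23.8, 25.4 and 25.1 in sham and 28.9, 29.5 and 29.3 in SCI libraries. The SCI libraries were close together and above every control library. Id2 rose by 0.42 ± 0.06 (edgeR adjusted p = 0.0015), with 0.24 ± 0.07 against sham. Cmc1, a mitochondrial protein gene, rose by 0.56 ± 0.08 (edgeR adjusted p = 0.000928) and Tmod2, the neuronal cap of actin filaments, by 0.33 ± 0.06 (edgeR adjusted p = 0.00265), both with sham between naive and SCI.

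Ddit4, which stress hormones induce and which dampens growth signalling, was at 133, 139 and 103 CPM in naive, 127, 159 and 163 in sham and 177, 171 and 192 in SCI libraries. All SCI libraries were above all controls. Its log2 change was 0.40 ± 0.10 (edgeR adjusted p = 0.0162), but it was not called without SCI 2 or SCI 3, and it was the 1 of 15 glucocorticoid response genes that rose on the same side. Without sham 3, 2 of that list rose and 2 fell, and without SCI 3, 1 fell. The clock gene Arntl rose by 0.27 ± 0.07 (edgeR adjusted p = 0.0171), with all SCI libraries above all controls, and was not called without any 1 of the SCI libraries or at equal depth. Of 17 clock genes, Arntl was the 1 that rose and Nr1d2, a repressor of Arntl, fell by 0.42, by 0.12 against sham. The number of clock genes that fell was 2 without naive 2, sham 1 or SCI 1 and 0 without SCI 2, and 2 rose without sham 3. No collection time is given in the labels.

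Several genes with the widest gap to both control groups were at or below about 1 CPM, where counting error is large. Rbp7, a retinol-binding protein gene, was at 0.29, 0.252 and 0.386 CPM in naive, 0.294, 0.298 and 0.546 in sham and 0.711, 0.939 and 0.773 in SCI libraries, so that all SCI libraries were above all controls. It rose by 1.21 ± 0.27 (edgeR adjusted p = 0.00925), with 1.08 ± 0.32 against sham, and was not called without SCI 2. Pde6b, a cGMP phosphodiesterase subunit known from rod photoreceptors, rose by 1.17 ± 0.23 (edgeR adjusted p = 0.00512), from a mean of 0.534 CPM in naive and 0.841 in sham to 1.49 CPM in SCI libraries.

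Csrp3, a muscle LIM protein gene, averaged 0.065 ± 0.0291 CPM in naive, 0.765 ± 0.448 in sham and 1.46 ± 0.431 in SCI libraries (SD, n = 3). SCI 3, at 1 CPM, was below sham 2, at 1.19 CPM. It rose by 2.69 ± 0.37 (edgeR adjusted p = 0.000997), with 0.99 ± 0.36 against sham. Crisp3, a secreted cysteine-rich protein gene, was at 0.68, 1.19 and 0.273 CPM in SCI, at 0.11, 0.417 and 0.0496 in sham and at 0, 0.0315 and 0 in naive libraries. It passed (edgeR adjusted p = 0.00335), but with so few naive counts no fold is given, and SCI 3 was below sham 2.

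The genes of MHC class II antigen presentation, by which macrophages and other cells show peptides to helper T cells, had 4 of 9 tested members that rose on the same side and 0 that fell, with a median log2 change of 0.46. All 9 were on the higher side of both control groups, beside 22.8% of all tested genes. The 4 were Cd74, RT1-Bb, RT1-Da and RT1-Db1. The count was 1 without SCI 1 or SCI 3, and 6 without sham 3. The RT1 genes belong to a multigene family and their reads may be split between copies.

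RT1-Bb, the class II beta chain, was at 17.2, 21.9 and 19.6 CPM in naive, 19.7, 13.8 and 21.1 in sham and 27.3, 22.6 and 28.2 in SCI libraries. Naive and sham overlapped, and all SCI libraries were above both. Its log2 change was 0.46 ± 0.12 (edgeR adjusted p = 0.019), with 0.51 ± 0.14 against sham and 0.41 ± 0.14 against naive, and it was not called without SCI 1 or SCI 3. Cd74, the invariant chain that guides class II molecules, was at 207, 152 and 185 CPM in naive, 261, 291 and 339 in sham and 333, 308 and 339 in SCI libraries. SCI overlapped sham through sham 3, and naive was below both. Cd74 rose by 0.49 ± 0.09 (edgeR adjusted p = 0.00506), with 0.14 ± 0.11 against sham. RT1-Da rose by 0.39 ± 0.11 (edgeR adjusted p = 0.0269), with 0.19 ± 0.12 against sham, and was not called without SCI 1 or SCI 3.

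Macrophage markers were counted beside them. Of 23 tested macrophage markers 1 rose on the same side, the signalling adaptor gene Tyrobp, at 0.07 ± 0.15 against sham, and 0 fell, with a median log2 change of 0.17 in all and -0.01 against sham. Their summed level was 633 to 727 CPM in naive, 764 to 1098 in sham and 886 to 978 in SCI libraries, so that SCI lay within the sham range. The macrophage count rested on single libraries: without sham 3, 11 members rose on the same side, without sham 1, 0 rose and 1 fell, and without sham 2, SCI 3 or any 1 of the naive libraries 0 rose. Tyrobp itself lost its call in 6 of 9 such fits. Of 15 lymphocyte markers 1 rose, Cd8a, or 2 without sham 3 and 0 without any 1 of the naive or SCI libraries, and the summed level was 32.4 to 39.0, 40.6 to 56.0 and 47.4 to 50.1 CPM. All tested members of both lists had counts in every library. In bulk tissue fewer cells of a type and less RNA per cell cannot be told apart, and the part of immune cell number in the MHC class II values was not tested.

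Cd8a, the CD8 chain of cytotoxic T cells, was at 0.362, 0.346 and 0.45 CPM in naive, 0.0735, 0.595 and 0.397 in sham and 0.711, 0.692 and 1 in SCI libraries. All SCI libraries were above all controls, but the call was lost by DESeq2, at equal depth, and without any 1 of the naive or SCI libraries. Of 18 cytokine and chemokine genes 2 rose on the same side: Cx3cl1, the fractalkine of neurons, by 0.49 ± 0.10 with 0.11 ± 0.11 against sham, and Ccl3, a macrophage chemokine, by 1.08 ± 0.34, lost by DESeq2 and in 7 of 9 fits without 1 library. The count was 4 without sham 3 and 1 in all other such fits except that without naive 3. Of 23 interferon-stimulated genes and 18 complement genes, 0 passed on the same side with all libraries. Without SCI 1, 4 interferon-stimulated genes rose, and without sham 3 2 of them and 5 complement genes rose. Without sham 1, 1 complement gene fell.

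Satellite glia genes had 4 of 19 tested members that rose on the same side and 1 that fell. Ptgds, the prostaglandin D synthase made by glia and meninges, was at 1026, 819 and 976 CPM in naive, 1006, 1294 and 1608 in sham and 1720, 1561 and 1814 in SCI libraries. SCI 2 was below sham 3, and the other SCI libraries were above all controls. Ptgds rose by 0.62 ± 0.12 (edgeR adjusted p = 0.00512), with 0.38 ± 0.14 against sham. Fabp7, the fatty acid-binding protein of satellite glia, rose by 0.64 ± 0.11 (edgeR adjusted p = 0.00227), with 0.05 ± 0.12 against sham. The count that rose was 7 without sham 3, 2 without naive 1, naive 3, sham 1 or SCI 3 and 1 without SCI 2. The count that fell was 3 without sham 1 and 0 without sham 2, SCI 2 or SCI 3. The list's summed level was 9562 to 9793 CPM in naive, 12036 to 15692 in sham and 13141 to 13982 in SCI libraries.

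Several genes of connective tissue fell. Of 22 tested fibroblast and collagen genes, 5 fell on the same side (Pi16, Col12a1, Col1a1, Sfrp4 and Col3a1) and 0 rose, with a median log2 change of -0.25. Without sham 1 the count was 13, without naive 2 or SCI 1 it was 7, without sham 2 it was 3, without sham 3 it was 2 and without SCI 2 or SCI 3 it was 1. The summed level of the list was 6148 to 7159 CPM in naive, 3705 to 6388 in sham and 4321 to 5265 in SCI libraries, and all members had counts in every library.

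Pi16, a marker of adventitial fibroblasts, was at 79, 50.9 and 60.3 CPM in naive, 45, 45.3 and 63.5 in sham and 37.5, 34.4 and 31.5 in SCI libraries. All SCI libraries were below all controls, and naive and sham overlapped. Pi16 fell by 0.72 (SE 0.14, edgeR adjusted p = 0.00501), by 0.57 against sham and by 0.88 against naive. Sfrp4, a secreted Wnt modulator, was at 17.4, 17.7 and 15.3 CPM in SCI libraries, below the lowest control library, sham 1, at 19.5 CPM, and fell by 0.56 (SE 0.15, edgeR adjusted p = 0.0222).

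Aspn, an extracellular proteoglycan gene, was at 16.7, 9.51 and 11 CPM in naive, 5.14, 5.77 and 5.31 in sham and 4.24, 4.1 and 3.37 in SCI libraries. The 3 groups did not overlap. Aspn fell by 1.06 (SE 0.18, edgeR adjusted p = 0.00259), by 0.46 against sham and by 1.66 against naive. Emilin2, an elastic fibre protein gene, fell by 0.47 (SE 0.10, edgeR adjusted p = 0.00721), by 0.21 against sham.

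Gsn, the actin-severing protein gelsolin, is high in fibroblasts and myelinating glia. It was at 1223, 1098 and 1193 CPM in naive, 830, 856 and 1176 in sham and 785, 695 and 787 in SCI libraries. All SCI libraries were lowest, though SCI 3 was close to sham 1. Gsn fell by 0.48 (SE 0.10, edgeR adjusted p = 0.00861), by 0.34 against sham, and was not called without SCI 2. The main fibrillar collagen genes behaved otherwise: Col1a1 averaged 1319 ± 80.9 CPM in naive, 702 ± 175 in sham and 668 ± 76.9 in SCI libraries (SD, n = 3), with a log2 change of -0.53 in all and -0.07 ± 0.14 against sham. Col1a1 and Col12a1 were not called without SCI 2 or SCI 3.

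**Figure D4:**
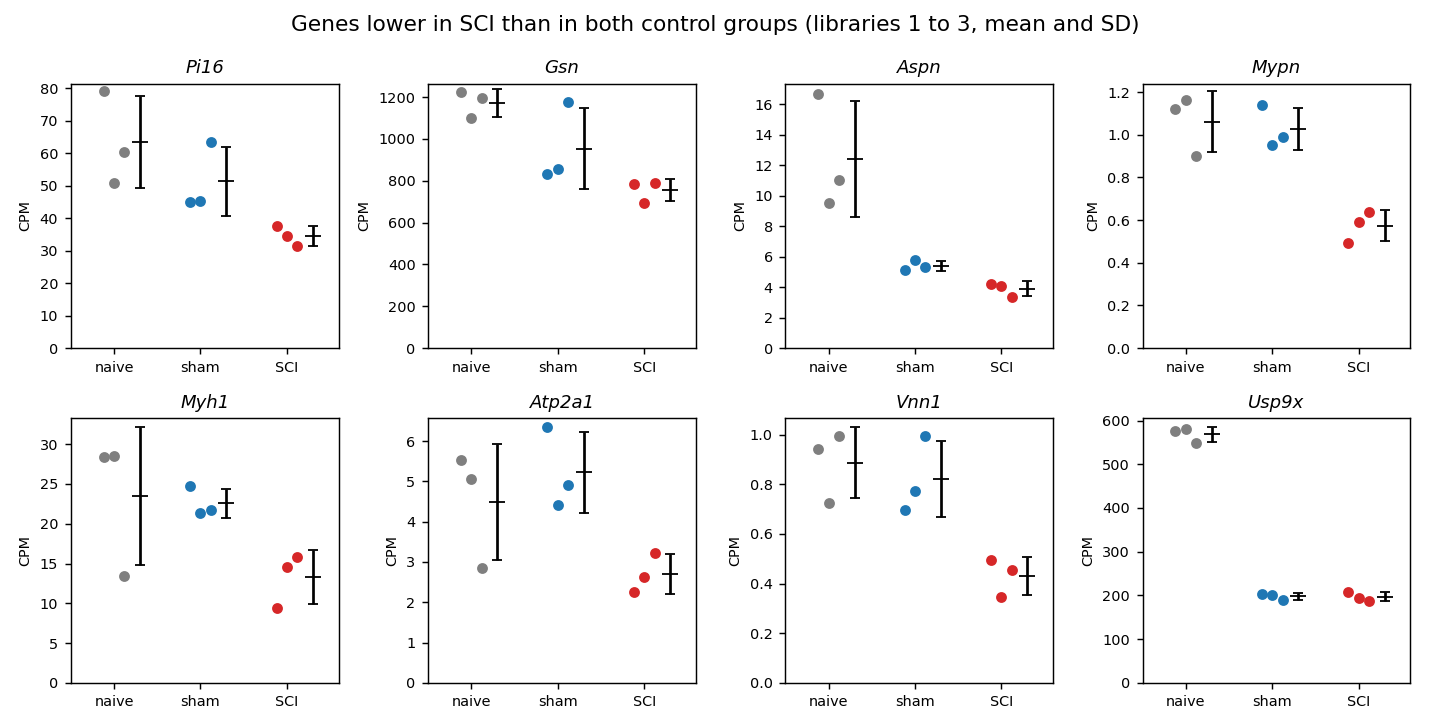
CPM of 8 genes that fell in SCI (y axes, from 0) in each naive, sham and SCI library (points, libraries 1 to 3 from left to right), with the mean and SD of each group beside them. For Mypn, Myh1 and Vnn1 the control means are alike and SCI is lower (1.06, 1.03 and 0.575 CPM for Mypn), whereas Usp9x is low in sham and SCI alike (198 and 197 CPM, with 568 in naive).

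Several skeletal muscle genes fell. The ganglion itself is not known to express most genes of that list, Pvalb excepted, a calcium buffer that proprioceptors share with muscle. Of 27 tested members, 5 fell on the same side (Neb, Atp2a1, Myoz1, Myh1 and Ryr1) and 0 rose. Called or not, 13 were below both control groups and 0 above, and the median log2 change was -0.35, with -0.67 against sham and 0.17 against naive. The count that fell was 1 without SCI 1 or SCI 2, 3 without naive 2, sham 2 or SCI 3 and 6 without naive 3 or sham 1. The count that rose was 1 without SCI 1, sham 2 or sham 3. With all libraries, 2 members passed as higher without being on the same side. The summed level was 232 to 275 CPM in naive, 438 to 462 in sham and 317 to 365 in SCI libraries, so that the 3 groups did not overlap and sham was highest. All tested members had counts in every library. Neb, which is also on the list of very long coding sequences below, fell by 0.40, with -0.08 ± 0.10 against sham and -0.72 ± 0.10 against naive. Its SCI and sham libraries overlapped.

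Myh1, a fast myosin heavy chain whose reads may be split with its near copies, was at 28.4, 28.5 and 13.5 CPM in naive, 24.7, 21.4 and 21.7 in sham and 9.46, 14.6 and 15.8 in SCI libraries. Naive 3 lay among the SCI libraries, and all other control libraries were higher. Its log2 change was -0.81 ± 0.22 (edgeR adjusted p = 0.0244), and the call was lost without naive 1, naive 2, sham 2 or any SCI library. Atp2a1, the calcium pump of fast muscle, averaged 4.49 ± 1.43 CPM in naive, 5.22 ± 1.01 in sham and 2.7 ± 0.491 in SCI libraries (SD, n = 3). It fell by 0.86 (SE 0.22, edgeR adjusted p = 0.0174), by 0.98 against sham and by 0.74 against naive, and was not called without SCI 1 or SCI 2.

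Mypn, a sarcomere scaffold gene outside the list, was at 1.12, 1.16 and 0.9 CPM in naive, 1.14, 0.952 and 0.992 in sham and 0.495, 0.593 and 0.637 in SCI libraries. SCI did not overlap the controls, and the control groups overlapped each other. Mypn fell by 0.89 (SE 0.21, edgeR adjusted p = 0.0149), by 0.87 against sham and by 0.90 against naive, but it was not called without any 1 of the SCI libraries. The muscle Kelch genes Klhl31 and Klhl41 fell by 1.56 and 0.81, at a mean SCI level of 0.203 and 0.652 CPM, and lost the call in most fits without 1 library and with the replicate number as a block. Myoz1, an anchor of the Z-disc, differed in order: at 1.35 ± 0.13 CPM in naive, 2.76 ± 0.372 in sham and 1.16 ± 0.339 in SCI libraries (SD, n = 3), naive was the nearer group. Its change was -1.29 ± 0.22 against sham and -0.25 ± 0.23 against naive, and it was not called without SCI 1 or SCI 3 or at equal depth. Csrp3, a muscle gene also outside the list, went the other way and rose by 2.69, with 0.99 ± 0.36 against sham. The part of muscle beside the ganglia in these values was not tested.

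Other falls were shared by sham. Of 49 genes with very long coding sequences, picked by hand, 15 fell on the same side and 0 rose, 5 to 21 over the fits without 1 library (21 without sham 2 or SCI 1, 14 without any 1 naive library, 16 without sham 1, 13 without sham 3, 9 without SCI 2, 5 without SCI 3). In all, 44 passed as lower, on the same side or not, beside 9.02% of all tested genes. The list's median was -0.57 in all, -1.14 against naive and 0.03 against sham. Usp9x, a deubiquitinase gene, was at 576, 580 and 549 CPM in naive, 204, 201 and 189 in sham and 208, 194 and 187 in SCI libraries. Sham and SCI overlapped, and naive was far above both. Usp9x fell by 0.77 (SE 0.06, edgeR adjusted p = 2.53e-05), with -0.01 ± 0.07 against sham. Mycbp2, a giant ubiquitin ligase of axons, fell by 0.70, with -0.01 ± 0.07 against sham. Both thus passed on the same side with an SCI mean hardly different from that of sham.

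Several ion channel and guidance genes also fell with SCI close to sham. Of 15 sodium channel genes 3 fell on the same side and 0 rose: Scn9a and Scn10a, the pain-sensing neurons' channels, and Scn2a. Scn9a averaged 392 ± 26 CPM in naive, 146 ± 26.1 in sham and 142 ± 5.38 in SCI libraries (SD, n = 3), a log2 change of -0.75 ± 0.10 in all and -0.04 ± 0.11 against sham. Without sham 3 the count that fell was 7 and 1 rose, and without sham 1, 1 fell and 1 rose. Scn10a lost its call in 7 of 9 fits without 1 library and with the replicate number as a block. Of 39 potassium channel genes 3 rose and 5 fell, Kcnd3 by 0.46 and Kcnt2 by 0.50 with -0.08 ± 0.10 and -0.05 ± 0.12 against sham, and the number that fell was 13 without sham 3, 2 without SCI 2 and 1 without SCI 3. The number that rose was 5 without sham 1 and 0 without SCI 1 or SCI 2.

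Of 35 axon guidance genes 6 fell on the same side and 0 rose, 2 to 11 over the fits without 1 library, lowest without sham 1, SCI 2 or SCI 3 and highest without sham 3. Robo2, a Slit receptor, Nrp1, a semaphorin co-receptor, and Unc5c, a netrin receptor, fell by 0.40, 0.42 and 0.65, with -0.04, -0.01 and -0.06 against sham. Of 25 cholesterol synthesis genes 4 fell and 0 rose, 0 to 8 over those fits (0 without SCI 2, 1 without sham 2 or SCI 3, 7 without sham 1, 8 without sham 3), with Hmgcs1, Idi1 and Hsd17b7 between -0.38 and -0.33 in all, and at -0.06 against sham for Idi1 and -0.01 for Hmgcs1.

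**Figure D5:**
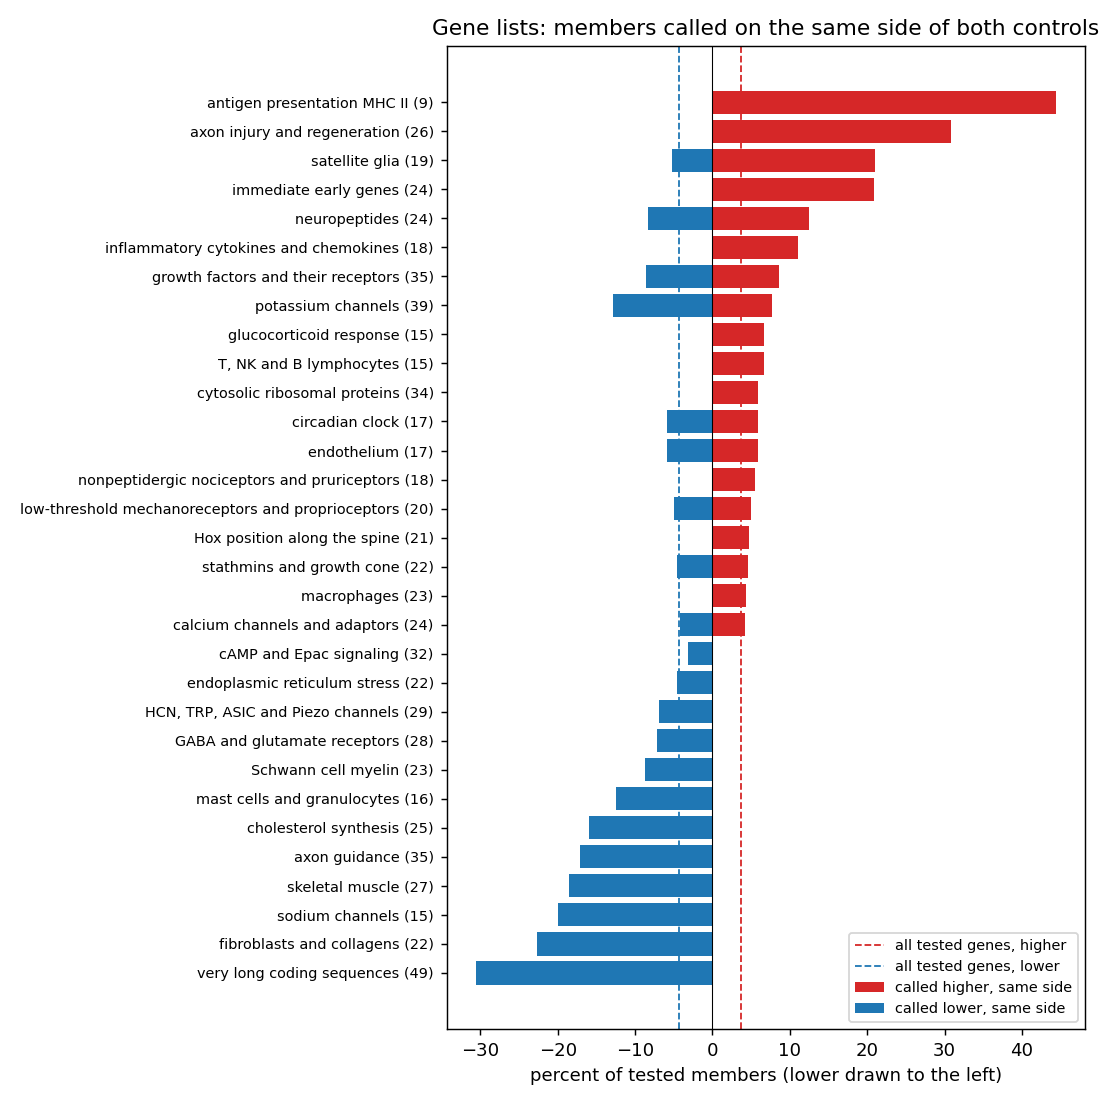
Share of tested members (x axis, percent) that passed on the same side of both control groups, higher in red to the right and lower in blue to the left, for the 31 lists with such a member (number tested in brackets). Dashed lines mark the share over all tested genes, 3.68% higher and 4.38% lower; MHC class II (4 of 9) and axon injury genes (8 of 26) reach farthest to the right and the very long coding sequences (15 of 49) farthest to the left.

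Among the other leading genes that fell, Vnn1, a pantetheinase gene, was at 0.941, 0.724 and 0.996 CPM in naive, 0.698, 0.774 and 0.992 in sham and 0.495, 0.346 and 0.455 in SCI libraries. All SCI libraries were below all controls. It fell by 0.94 (SE 0.25, edgeR adjusted p = 0.0228) and was not called by DESeq2 or without any 1 of the SCI libraries. Poln, a DNA polymerase gene, was at a mean of 2.47 ± 0.171 CPM in naive, 2.36 ± 0.173 in sham and 1.56 ± 0.162 in SCI libraries (SD, n = 3) and fell by 0.61 (edgeR adjusted p = 0.0138), a call lost without SCI 2 or SCI 3. Rcor1, a corepressor gene, Agpat9, a lipid acyltransferase gene, and Mdga2, a synaptic adhesion gene, fell by 0.32, 0.46 and 0.43, with sham between naive and SCI.

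The mast cell protease genes Cpa3 and Cma1 were the 2 of 16 mast cell and granulocyte genes that fell on the same side, by 0.95 and 0.91. The count was 1 without SCI 1 and 0 without naive 1, naive 3, sham 2, SCI 2 or SCI 3. Both were at most 2.22 CPM in every library, overlapped sham, and lost the call with limma-voom, with the block and in most fits without 1 library. At the threshold itself, Rps24 (log2 change 0.37) and Cdh22 (0.56) lay just inside at an adjusted p of 0.0499751 by edgeR, and Fbf1 (0.25) and Prkab1 (0.28) just outside at 0.0502238 and 0.0502422.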

How the data were processed

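RNA of rat dorsal root ganglia was sequenced in 9 libraries. The TruSeq RNA Sample Prep Kit V2 was used for paired-end libraries, per the labels' protocols. It does not mark strand, and a gene and its antisense partner share reads. The submitters' processing notes list FastQC, Trimmomatic, TopHat2, HTSeq and DESeq2, without roles. What is not given in the sources used here includes their versions, the genome build and the annotation. The authors deposited whole-number counts per gene, not normalized, for 30446 genes. 348 symbols are shared by 723 identifiers, and for lists the identifier with the highest count was used.

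Groups were taken from each sample's title. Deposited counts were tested with edgeR 4.0.16 in R 4.3.3 (quasi-likelihood F test) after TMM scaling and edgeR's default low-count filter. 1 fit of all 9 libraries held a mean for each group and left 6 residual degrees of freedom. The contrast was SCI minus the mean of naive and sham, each at a weight of 0.5, and p was adjusted over all tested genes by Benjamini-Hochberg, with a call below 0.05. That fit also gave the log2 changes. Each SE of a log2 change was its absolute value divided by the square root of the test's F statistic. CPM were computed with TMM-scaled library sizes. The square root of the common dispersion was 0.0805. Genes at or below 1 CPM carry a large counting error. Every pair of replicates differed beyond sampling noise (chi-square per degree of freedom 3.15 to 41.8). It was 3.80 to 5.11 between naive libraries, 3.15 to 8.00 between SCI libraries and 13.3 to 41.8 between sham libraries. The fit held 1 spread per gene for all groups, so an SE against sham can understate the spread of the sham libraries.

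The members and the 42 gene lists (946 symbols, 914 matched, 859 tested) were chosen with earlier results of these data known, and lists are described by counts and medians. Named were the 12 higher and 12 lower genes with the smallest p among those called and beyond all 6 control libraries, the 8 of each direction with the largest gap to the nearer control group, and up to 3 called same-side members of each list by p. Genes without a proper symbol were passed over. Not every gene that the rule takes is reported here. Junb, Atf3, Gadd45a, Cckbr, Vegfa, Sfrp4, Col3a1, RT1-Db1, Cartpt, Pcsk2, Igf1r, Igfbp5 and Ryr1 were named after their values were seen, as further list members that passed. Promoters came from RefSeq (GRCr8).

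On simulated counts (200 changed genes per run, 5 runs, 16435 to 16450 genes) this comparison recovered 34.8% of genes at a true fold of 1.25, 74% at 1.5, 88.4% at 2 and 99.2% at 4. False calls averaged 10.6 per run. The simulated naive and sham groups had the same mean for every gene, whereas many genes differed between them in the data. Recovery was scored on the contrast and its direction, not on the same-side rule. These rates therefore do not describe the calls reported here. Alternatives were other scalings, filters and thresholds, DESeq2 (1.42.0), limma-voom (limma 3.58.1), a robust spread, the controls as 1 group, a replicate block, equal depth and each library left out.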

Additional observations from a re-analysis of the deposited data

How the results depend on the processing

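Genes that passed between SCI and both control groups are given as higher and lower, for all, those on the same side, and those beyond all control libraries. A fold of at least 1.5 left 108 and 210, 101 and 143, and 28 and 22. With the 6 control libraries as 1 group edgeR called 0 and 0 in each set, with 713 genes at an unadjusted p under 0.05. An adjusted p under 0.1 gave 2073 higher in all, 1009 higher on the same side and 72 lower beyond all controls, and the strict filter gave 26 lower beyond all controls. Leaving out each library gave 334 to 2501 and 545 to 2433 in all, 142 to 1753 and 209 to 1686 on the same side, and 48 to 757 and 27 to 660 beyond the controls. The other counts stayed within 1.5 times of those reported under RLE and upper-quartile scaling, no filter, DESeq2, limma-voom, a robust spread and equal depth, the last chosen after seeing the data. None of the 100 genes taken by the naming rule changed sign. Of these, 96 passed in the main fit, and all 96 lost the call with the controls as 1 group, 46 without SCI 2 and 41 without SCI 3. The other 4, C1qa, Cdh1, Ifi27 and Pf4, did not pass in the main fit. The genes named after their values were seen, Ptgs2 and Irf4 included, had no such check of their own. With the replicate number as a block 1117 and 1360 genes passed, 556 and 637 on the same side and 66 and 38 beyond the controls, and 8 named genes lost the call. Same-numbered libraries had correlated deviations of -0.0946 to 0.124, so the numbers are not shown to pair the libraries. The alternative with protein length as an offset and the protein lengths of called genes were not run, because no protein lengths were used here. Depth limits the genes near 1 CPM, and 3 libraries per group limit every call.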

Other observations

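Of the 42 gene lists, 31 had at least 1 member that passed on the same side of both control groups and 11 had none. Over all tested genes, 7.91% passed as higher and 9.02% as lower, on the same side or not. Cytosolic ribosomal protein genes, subunits of the ribosome, had 12 of 34 tested members higher by edgeR, but 2 of them, Rpl27 and Rps28, on the same side, with a list median of 0.27 in all, 0.57 against naive and -0.03 against sham. Without sham 3, 31 of the 34 rose on the same side, without any 1 naive library, SCI 1 or SCI 2 it was 1, and without sham 1, sham 2 or SCI 3 it was 0. Rps28 lost its call in 7 of 9 such fits and Rpl27 without SCI 3. Single values of these genes are uncertain, since reads may be split with pseudogenes. Genes of oxidative phosphorylation had 11 of 40 higher and 0 on the same side, with medians of 0.13, 0.31 and -0.07. Without sham 3, 5 of them rose and 1 fell on the same side, and without SCI 1, 1 rose. Schwann cell myelin genes had 10 of 23 lower and 2 on the same side, Gldn, which gathers sodium channels at nodes, and Gjb1, the gap junction protein of myelin, with medians of -0.30, -0.64 and 0.06. The number on the same side was 9 without sham 1, 8 without SCI 1 and 1 without sham 3, SCI 2 or SCI 3, and Gjb1 was not called without SCI 2 or SCI 3.

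Of 21 Hox genes, which mark position along the spine, Hoxc10 was the 1 that rose on the same side, by 0.48 ± 0.09 (SE, edgeR adjusted p = 0.00425), with 0.12 ± 0.10 against sham. Without sham 1 the count of Hox genes was 2. Hoxc10 averaged 6.86 ± 0.33 CPM in naive, 11.3 ± 1.2 in sham and 12.4 ± 0.82 in SCI libraries (SD, n = 3). Of 32 genes of cAMP and Epac signalling 1 passed on the same side, the adenylyl cyclase gene Adcy8, which fell by 0.33 and by 0.20 against sham and was not called without SCI 2 or SCI 3. Without sham 3, 3 of that list rose and 5 fell, and without sham 1, 2 rose and 2 fell. Of 12 cytosolic heat shock, 14 opioid and cannabinoid, 18 pericyte and smooth muscle, 11 adipocyte and 10 central nervous system glia genes, 0 passed on the same side with all libraries. Without sham 3, 3 heat shock and 4 opioid and cannabinoid genes fell, and 3 pericyte and 1 adipocyte genes rose. Without sham 1, 1 heat shock, 1 pericyte, 2 adipocyte and 1 glia genes fell and 1 opioid gene rose. Without sham 2, 2 pericyte and 1 adipocyte genes fell, and without SCI 1, 2 opioid, 1 pericyte, 1 adipocyte and 1 glia genes fell and 1 glia gene rose. Ptgs2, the inducible prostaglandin synthase, and Irf4, a transcription factor of immune cells, were chosen here after their values were seen: both fell with all SCI libraries below all controls, by 0.89 (edgeR adjusted p = 0.0266) and 0.96 (edgeR adjusted p = 0.0146), at 0.808 and 0.61 CPM in SCI libraries.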
